A study of Mus musculus with 8 samples.

Results

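The heat shock chaperones and their cochaperones were examined in primary mouse hepatocytes with and without metformin. They were taken by symbol: every probe named for a gene that starts with Hsp, Dnaj, Cct and a digit, or Bag and a digit, without the endoplasmic reticulum chaperone genes Hspa5, Hsp90b1, Dnajc3 and Dnajb9 and without Hspg2, which encodes the matrix proteoglycan perlecan. This gave 74 of 16304 probes and 57 of 10944 named genes. The cells were hepatocytes of male C57Bl6/J mice, freed from the liver with collagenase and kept in wells. Treated wells (n = 4) held 500 µM metformin, a biguanide drug that lowers blood glucose, and the other wells (n = 4) were controls, both at 24 h. RNA of each well was read on 1 Illumina bead array, and values are the deposited log2 intensities. The labels do not say whether wells came from different mice, so each p-value sets the groups apart only against the scatter of these wells, which may be technical.

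Chaperones bind unfolded proteins and release them to fold. In the cytosol, J proteins (DNAJ) hand clients to HSP70 and drive its ATPase, nucleotide exchange factors such as the BAG and HSP110 proteins reset it, HSP90 completes many kinases and receptors, and the TRiC ring of CCT subunits folds actin and tubulin. Mitochondria have their own HSP70 (Hspa9) and the HSP60 and HSP10 chaperonin that folds imported enzymes. Heat shock factors, above all HSF1, raise many of these genes when unfolded protein builds up. These factors bind repeats of GAA and its reverse complement, TTC, in the genes' promoters.

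Of the 57 genes, 1 passed the threshold, an adjusted p under 0.05 in limma over all 10944 genes, and it was lower with metformin. This was Bag2, a nucleotide exchange factor of HSC70 that restrains the ubiquitin ligase CHIP, which fell by 0.75 ± 0.11 log2 units (standard error, n = 4 per group; 1.68-fold lower; limma adjusted p = 0.0106). In all, 0 members were higher, where 3.32% of all genes were, and 1 was lower, where 3.44% of all genes were. The members' share past the threshold was 1.75%, where 6.76% of all genes passed. At an unadjusted p under 0.05 there were 4 higher and 4 lower members, or 14% of members, where 23.8% of all genes reached it. The 4 metformin arrays lay apart from the 4 control arrays for 7 members, or 12.3%, where 15.3% of all genes did so. The median change of the members was -0.0047 log2 units, that of all genes 0.010, and the median size of a change, whatever its sign, was 0.15 in members and 0.20 in all genes. From bulk RNA, fewer cells of a type and less RNA per cell cannot be told apart.

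**Figure D1:**
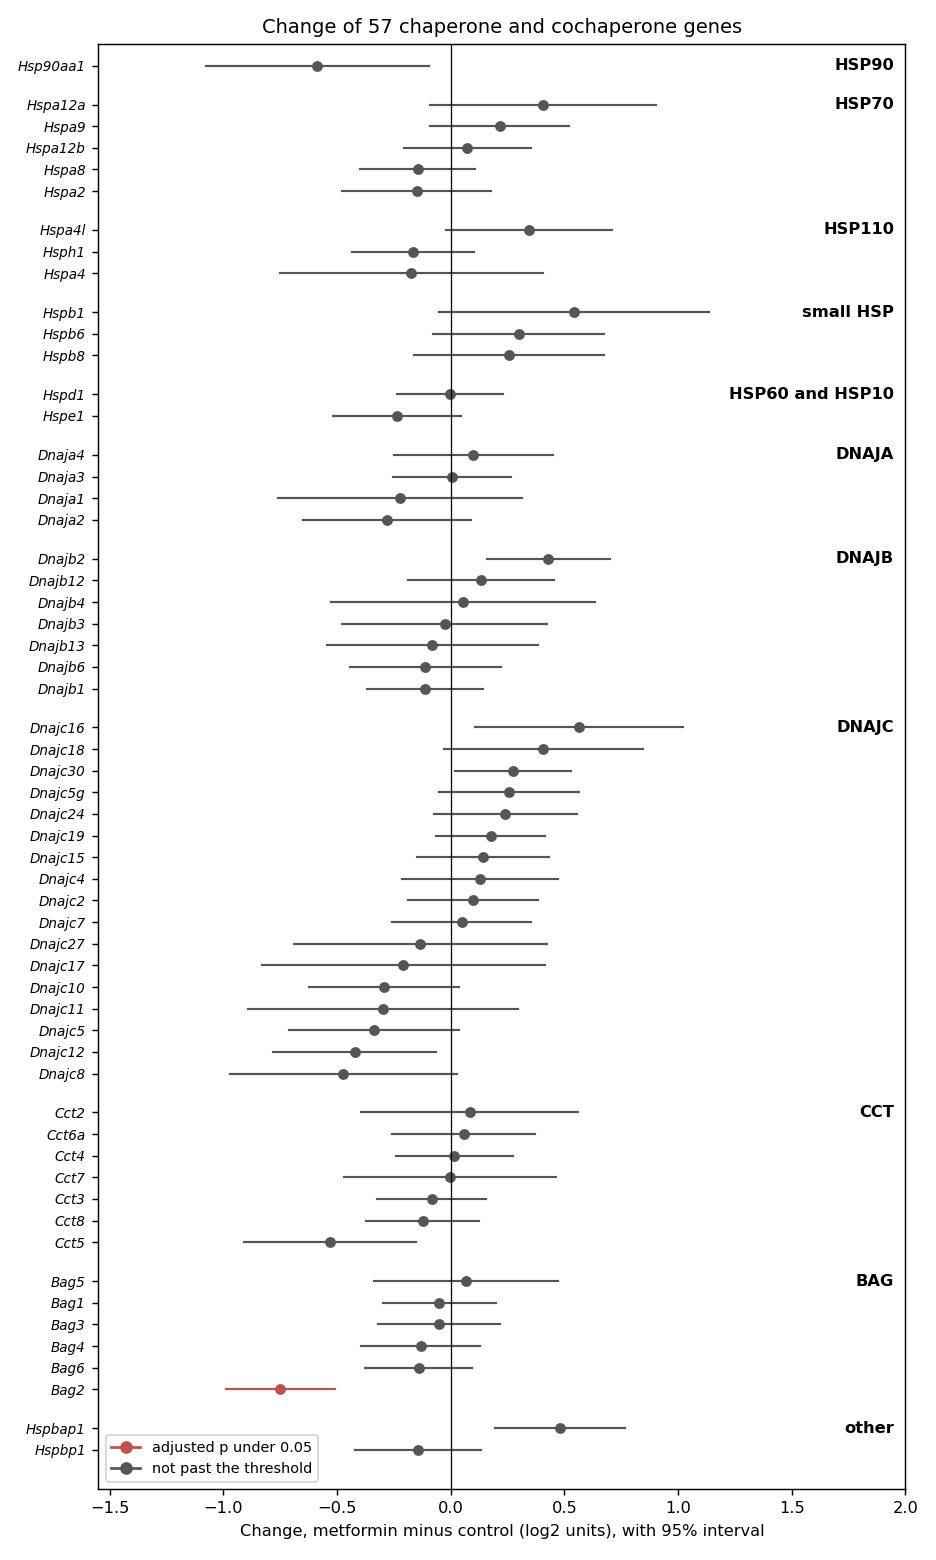
Change of each of the 57 genes, metformin minus control, in log2 units (x axis), grouped by subfamily (y axis), with points for the limma estimate and lines for its 95% interval (4 arrays per group). Bag2 alone passed the threshold, at -0.75, and most other intervals cross 0.

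The 95% interval of the change, from limma and not adjusted for the number of genes, lay within 1 log2 unit (2-fold) of 0 in both directions for 54 of the 57 genes, and within 1.5-fold for 34. Those that reached past 2-fold were the intervals of Hsp90aa1 (-1.08 to -0.094), Hspb1 (-0.052 to 1.14) and Dnajc16 (0.11 to 1.02). By subfamily the median change was -0.59 for the 1 HSP90 gene, 0.073 for HSP70, -0.17 for HSP110, 0.30 for the small HSP genes and -0.12 for HSP60 and HSP10. It was -0.11 for DNAJA, -0.027 for DNAJB, 0.099 for DNAJC, -0.0030 for CCT, -0.092 for BAG and 0.17 for the 2 other genes. The medians of HSP70, HSP110, CCT, DNAJA, DNAJB and DNAJC changed sign under at least 1 alternative, while those of HSP90, HSP60 and HSP10, the small HSP genes, BAG and the other genes did not. The members' standard errors ran from 0.10 to 0.28 log2 units. Of the members 6 lay in the lowest 25% of genes by level.

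The promoters of 3 members are shown because HSF1 acts through such regions: that of Bag2, the gene that fell, the shared promoter of the chaperonin pair, and that of the J protein gene Dnajb6. RefSeq windows (build GRCm38.p6) from 250 bases before to 50 bases after the start were found for 46 of the 57 genes, 62 windows in all. They were searched on both strands for the heat shock motif GAANNTTCNNGAA, which reads TTCNNGAANNTTC on the other strand, with overlapping matches allowed. It was present in 6 of the 62 windows (9.68%), those of the 4 genes Hspd1, Hspe1, Dnajb6 and Hsph1, and in 0.603% of all 32851 windows. By gene the share was 8.7% of the 46, where 0.662% of all 27025 genes had it. These windows are not independent. Hspd1 and Hspe1 share the matched bases, and Dnajb6 and Hsph1 were each counted through overlapping windows of a single site. The sequences give the 250 bases before the start, 5′ to 3′ on the gene's strand, with the motif in capitals: Bag2 at chr1:33757751-33758000 (minus strand), Hspe1 at chr1:55087898-55088147 (plus strand) and Dnajb6 at chr5:29735648-29735897 (plus strand).
Bag2: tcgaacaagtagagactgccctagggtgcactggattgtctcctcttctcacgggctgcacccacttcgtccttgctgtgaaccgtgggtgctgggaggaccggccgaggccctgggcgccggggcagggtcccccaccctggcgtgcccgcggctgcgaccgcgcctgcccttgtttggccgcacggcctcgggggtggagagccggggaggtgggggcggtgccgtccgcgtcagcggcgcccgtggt
Hspe1: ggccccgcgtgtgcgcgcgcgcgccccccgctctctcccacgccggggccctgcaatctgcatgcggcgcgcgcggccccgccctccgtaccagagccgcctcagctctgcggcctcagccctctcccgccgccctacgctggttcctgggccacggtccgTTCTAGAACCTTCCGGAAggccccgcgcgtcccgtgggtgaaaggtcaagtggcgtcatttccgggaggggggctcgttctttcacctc
Dnajb6: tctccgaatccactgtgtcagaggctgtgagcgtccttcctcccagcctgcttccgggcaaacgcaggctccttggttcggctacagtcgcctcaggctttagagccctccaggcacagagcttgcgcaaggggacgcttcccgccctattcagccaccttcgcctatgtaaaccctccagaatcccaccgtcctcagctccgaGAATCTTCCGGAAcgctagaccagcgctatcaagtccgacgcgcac

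The window of Bag2 held 0 matches. In Hspe1 there were 2 overlapping matches, which began 89 and 84 bases before the start. Hspd1, which runs the other way from the same stretch of chromosome 1, had the same bases 144 and 139 before its own start. In Dnajb6 the match began 46 bases before the first start and 127 before the next one. In Hsph1 it lay after the start, from base 37 of the first start and base 16 of the next one. None of these 4 genes passed the threshold: the changes were -0.0047 for Hspd1, -0.24 for Hspe1, -0.11 for Dnajb6 and -0.17 for Hsph1. A match is a run of letters and no evidence of binding. Only exact matches within the windows were counted, so the lack of a match is no evidence against binding.

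Bag2 had 7.04, 7.16, 6.93 and 7.08 log2 units in the metformin wells, against 7.86, 7.89, 7.67 and 7.79 in the control wells. The groups did not overlap, and the spread within each (SD 0.093 with metformin and 0.095 in controls) was small beside the difference of their means. The gene has 1 probe on the array. Bag2 passed the threshold in each of the 8 fits that left out 1 array, with changes from -0.79 to -0.71, and over all alternatives its adjusted p was 0.00656 to 0.0381. The other BAG genes did not pass. Bag6, a factor in the sorting of membrane proteins, had 7.54, 7.65, 7.78 and 7.78 with metformin and 7.80, 7.86, 7.80 and 7.86 in controls (-0.14 ± 0.10, adjusted p = 0.455). These groups did not overlap either, but the gap was small. Bag3, the partner of HSPB8 in selective autophagy and a classic heat-inducible gene, had a change of -0.052. The changes of Bag1, Bag4 and Bag5 were -0.051, -0.13 and 0.067.

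**Figure D2:**
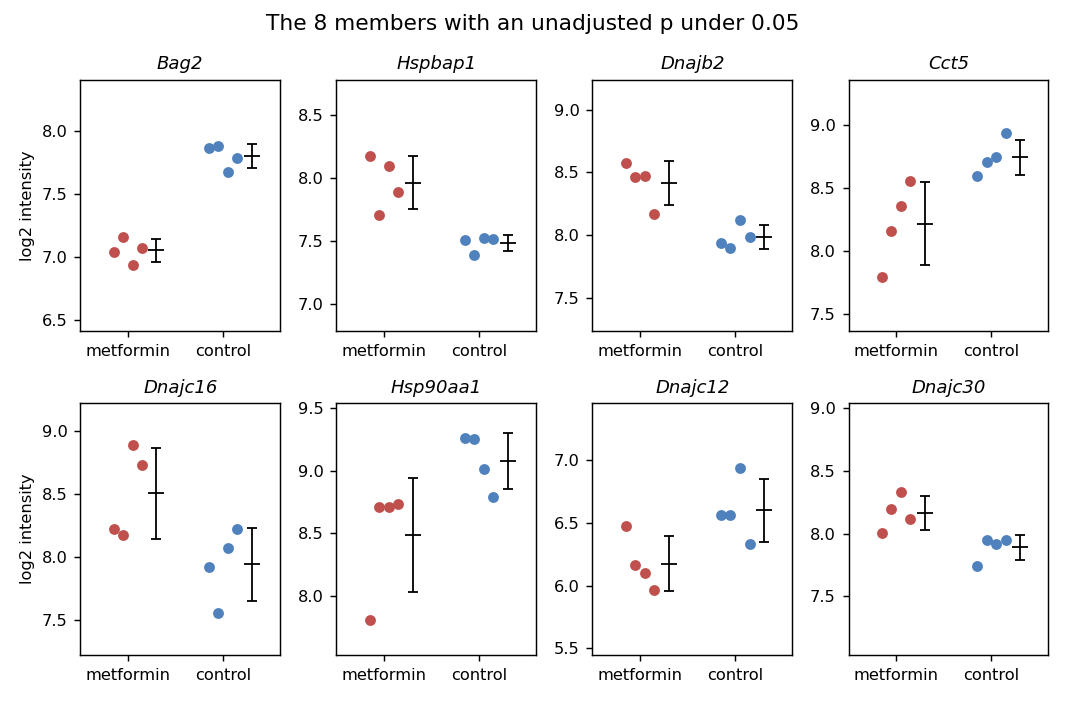
log2 intensity (y axis) in 4 metformin wells (red) and 4 control wells (blue) for the 8 members with an unadjusted p under 0.05; points are wells, dashes with bars are mean and SD, and each panel spans 2 log2 units. The groups lie apart for Bag2, Hspbap1, Dnajb2, Cct5, Hsp90aa1 and Dnajc30 and overlap for Dnajc16 and Dnajc12.

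HSP90 was represented by 1 gene, Hsp90aa1, the stress-inducible cytosolic form. It had 7.81, 8.71, 8.71 and 8.73 log2 units with metformin, against 9.26, 9.25, 9.01 and 8.79 in controls. All 4 metformin values were below the control values, but replicate 1 stood far under the other 3 metformin wells and the nearest values of the groups were almost equal. The change of -0.59 ± 0.22 did not pass (limma adjusted p = 0.141), and without metformin replicate 1 it was -0.36. The gene's other probe, near the lower end of the scale, had a change of 0.16.

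Of the 5 HSP70 genes 0 passed in limma, and 0 reached an unadjusted p under 0.05, where 6.76% and 23.8% of all genes did. Hspa8, the constitutive HSC70, had 13.80, 13.90, 13.64 and 14.02 with metformin and 13.92, 14.01, 13.99 and 14.03 in controls. The change was -0.15 (95% interval -0.40 to 0.11), and 0.023 at its other probe, and the groups overlapped with metformin replicate 3 the lowest well. Hspa9, the mitochondrial HSP70 that pulls proteins through the inner membrane, had 12.73, 12.99, 13.29 and 12.81 with metformin and 12.81, 12.69, 12.75 and 12.70 in controls (change 0.21, 95% interval -0.091 to 0.52). Hspa12a, a distant relative, had 5.15, 5.60, 4.51 and 4.71 with metformin and 4.42, 4.49, 4.69 and 4.75 in controls, at the dim end of the scale and with overlap (0.41 ± 0.22). Hspa2, best known from testis, had a change of -0.15, and Hspa12b one of 0.073.

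The 3 HSP110 genes, exchange factors of HSP70, also did not pass. Hspa4l had 6.18, 6.43, 6.11 and 6.01 with metformin and 6.25, 5.80, 5.67 and 5.62 in controls (0.34 ± 0.16, adjusted p = 0.234). Hsph1, the strongly heat-inducible member, had 8.99, 8.94, 9.24 and 9.04 with metformin and 9.25, 9.02, 9.32 and 9.29 in controls (-0.17 ± 0.12). For Hspa4 the wells with replicate number 1 stood apart in both groups, at 9.18 with metformin and 9.21 in controls, while the other wells ran from 9.85 to 10.06 with metformin and from 10.10 to 10.21 in controls. Its change was -0.17 ± 0.26.

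All 3 small HSP genes had positive changes, and none passed. Hspb1, which encodes the HSP27 type of small chaperone that holds unfolding proteins, had 11.41, 11.15, 11.00 and 11.24 with metformin and 11.17, 9.78, 10.86 and 10.83 in controls. Control replicate 2 lay far below the other wells, and the change of 0.54 ± 0.27 (limma adjusted p = 0.25) was 0.25 without that well. Hspb6 had 9.17, 9.25, 8.50 and 8.89 with metformin and 8.63, 8.56, 8.80 and 8.62 in controls, with overlap (0.30 ± 0.17). Hspb8, the partner of BAG3, had a change of 0.25 ± 0.19.

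Neither gene of the mitochondrial chaperonin passed. Hspd1, which encodes HSP60, had 12.38, 12.46, 12.55 and 12.43 with metformin and 12.44, 12.54, 12.52 and 12.34 in controls, a change of -0.0047 (95% interval -0.24 to 0.23). Hspe1, its HSP10 lid, had 11.03, 11.22, 11.35 and 11.28 with metformin and 11.26, 11.66, 11.45 and 11.46 in controls. The groups of Hspe1 overlapped through control replicate 1, and its change was -0.24 ± 0.13 (adjusted p = 0.29). Over the 9 measured of 10 listed mitochondrial members 0 passed in limma, where 6.76% of all genes did. Dnajc30 was the 1 gene (11.1%) with an unadjusted p under 0.05, which 23.8% of all genes reached. The median change of these members was 0.13. Dnajc30, a mitochondrial J protein, had 8.00, 8.20, 8.33 and 8.12 with metformin and 7.74, 7.95, 7.92 and 7.95 in controls (0.27 ± 0.11, adjusted p = 0.185). Dnaja3 (0.0054), Dnajc4 (0.13), Dnajc15 (0.14) and Dnajc19 (0.18), the last a part of the import motor, had smaller positive changes, and Dnajc11 one of -0.30 ± 0.26. The 3 probes of Dnajc19 disagreed, with -0.44 at a dimmer one. The other probe of Dnaja3, near the lower end of the scale, had a larger change of 0.34 (adjusted p = 0.197 in the limma fit of every probe).

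**Figure D3:**
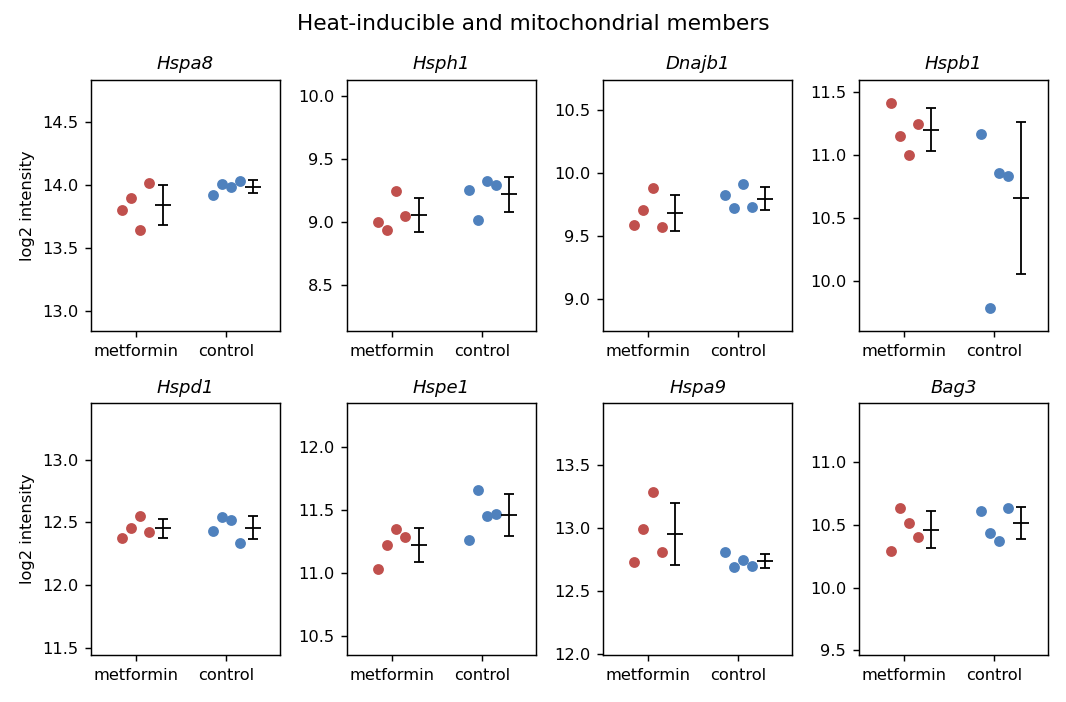
log2 intensity (y axis) in 4 metformin wells (red) and 4 control wells (blue) for 8 heat-inducible or mitochondrial genes; points are wells, dashes with bars are mean and SD, and each panel spans 2 log2 units. The groups overlap in every panel, and control replicate 2 of Hspb1, at 9.78, stands far below the other wells.

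The choice by symbol took 7 CCT genes of the cytosolic chaperonin TRiC. Tcp1, the gene of a further TRiC subunit, was counted with the partners and had a change of 0.069 (limma adjusted p = 0.755). Cct5, the epsilon subunit, had 7.79, 8.16, 8.36 and 8.56 with metformin and 8.60, 8.71, 8.74 and 8.93 in controls. The groups lay apart by a narrow gap, and the change of -0.53 ± 0.17 did not pass (adjusted p = 0.0929, but 0.0473 with the replicate number as a block). Cct8 had 11.43, 11.62, 11.67 and 11.58 with metformin and 11.64, 11.65, 11.64 and 11.87 in controls (-0.12 ± 0.11). The changes of the other subunits were -0.083 for Cct3, -0.0030 for Cct7, 0.016 for Cct4, 0.057 for Cct6a and 0.083 for Cct2. Cct2 and Cct7 had the widest 95% intervals of these, from -0.39 to 0.56 and from -0.47 to 0.46. The dimmer probe of Cct3, at a level of 10.10, had a change of -0.32. In the limma fit of every probe its unadjusted p was 0.047 and its adjusted p 0.211.

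The J proteins numbered 4 DNAJA, 7 DNAJB and 17 DNAJC genes, and none passed, where 6.76% of all genes did. Dnajb2, a J protein that binds ubiquitin chains, had 8.57, 8.46, 8.47 and 8.17 with metformin and 7.94, 7.90, 8.12 and 7.99 in controls. These groups did not overlap, and the change was 0.43 ± 0.12 (limma adjusted p = 0.0665, or 0.0424 without metformin replicate 4), and Dnajb2 also passed with an offset of 16 added before the log. Dnajb1, the heat-inducible partner of HSP70, had 9.58, 9.71, 9.88 and 9.57 with metformin and 9.82, 9.72, 9.91 and 9.73 in controls, a change of -0.11 (95% interval -0.37 to 0.14). The other DNAJB genes were Dnajb12 (0.13), Dnajb4 (0.053), Dnajb3 (-0.027), Dnajb13 (-0.081) and Dnajb6, which keeps polyglutamine proteins soluble (-0.11 at its brighter probe and 0.16 at the other). In the DNAJA group Dnaja2 had 7.16, 7.49, 7.42 and 7.15 with metformin and 8.00, 7.42, 7.34 and 7.59 in controls (-0.28 ± 0.16). Dnaja1 had 4.29, 4.52, 4.50 and 4.41 with metformin and 4.64, 4.24, 4.29 and 5.43 in controls, near the lower end of the scale (-0.22 ± 0.24). The change of Dnaja4 was 0.10.

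The changes of the DNAJC genes ran from -0.47 to 0.56, with 10 positive and 7 negative. Dnajc16, a J protein of the endoplasmic reticulum membrane, had 8.23, 8.18, 8.89 and 8.73 with metformin and 7.92, 7.55, 8.07 and 8.22 in controls (0.56 ± 0.20, adjusted p = 0.129, but 0.0424 with the replicate block). Dnajc12, known in humans as the cochaperone of the aromatic amino acid hydroxylases such as that of phenylalanine, had 6.47, 6.16, 6.10 and 5.96 with metformin and 6.56, 6.56, 6.93 and 6.33 in controls. Its groups overlapped through metformin replicate 1, and the change was -0.42 ± 0.16 (adjusted p = 0.145). Dnajc8, a J protein found with the splicing machinery, had 7.26, 7.84, 7.57 and 8.08 with metformin and 7.67, 8.42, 8.07 and 8.49 in controls (-0.47 ± 0.22, adjusted p = 0.233, but 0.0465 with the replicate block). The groups of Dnajc8 overlapped, and the metformin well was the lower of every same-numbered pair.

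The remaining DNAJC genes had values on both sides of 0. Positive changes were those of Dnajc18 (0.41), Dnajc5g (0.26), Dnajc24, which acts in the diphthamide pathway (0.24), Dnajc2 of the ribosome (0.099) and Dnajc7 (0.047). Negative changes were those of Dnajc5, the cysteine string protein (-0.34), Dnajc10, a disulfide reductase of the endoplasmic reticulum (-0.30), Dnajc17 (-0.21) and Dnajc27 (-0.13). Dnajc10 and Dnajc2 each had a dimmer probe of the opposite sign, at 0.21 and -0.21. With Dnajb12 and Dnajc16, Dnajc10 and Dnajc18 place 4 members at the endoplasmic reticulum, so the members are not all cytosolic or mitochondrial. In limma 0 of these 4 passed, where 6.76% of all genes did. Dnajc16 alone (25%) had an unadjusted p under 0.05, which 23.8% of all genes reached.

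Outside these families were Hspbap1 and Hspbp1. Hspbap1, named for its binding to HSPB1, had 8.17, 7.70, 8.09 and 7.88 with metformin and 7.51, 7.39, 7.52 and 7.51 in controls. All 4 metformin wells were above the controls, and at 0.48 ± 0.13 the gene just missed the threshold (adjusted p = 0.0541). It passed with an offset of 16 added before the log (adjusted p = 0.0396), with the mean of a gene's probes and with the dimmest genes left out. Hspbp1, an exchange factor of HSP70, had 8.61, 8.23, 8.32 and 8.49 with metformin and 8.73, 8.54, 8.52 and 8.44 in controls (-0.14 ± 0.12).

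Of the 15 genes listed as heat-inducible 12 were measured, and Hspa1a, Hspa1b and Hsp90ab1 were not analysed here. In limma 0 of the 12 passed, where 6.76% of all genes did. Hsp90aa1 was the 1 gene (8.33%) with an unadjusted p under 0.05, which 23.8% of all genes reached. Of the 12, 4 had positive and 8 negative changes, and the median was -0.082. With the replicate number as a block, 1 member was higher and 3 were lower past the threshold, Dnajc16 on the one side and Bag2, Cct5 and Dnajc8 on the other, where 8.49% of all genes passed.

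Genes that work with these chaperones were listed from the pathway, 56 in all, and 46 were measured. Of these 2 were higher and 3 lower, or 10.9%, where 6.76% of all genes passed, and their median change was -0.0095. With the replicate block 2 were higher and 2 lower, where 8.49% of all genes passed. The lists were chosen with earlier results of these data known, so the shares only describe them. Hsf2, a heat shock factor that can pair with HSF1, had 6.82, 7.45, 7.27 and 7.52 with metformin, against 7.72, 8.38, 8.42 and 8.33 in controls. The groups did not overlap, replicate 1 was the lowest well of both, and Hsf2 fell by 0.95 ± 0.20 (limma adjusted p = 0.0286). The other 2 measured genes of the heat shock factor list did not pass, and Hsf1 was not analysed here. Hsbp1 had a change of -0.39 ± 0.12 (limma adjusted p = 0.0841), with every metformin well below the controls. Hsf4 had one of 0.27 ± 0.20 (limma adjusted p = 0.44), with overlap.

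Of 20 measured of 23 listed HSP90 and HSP70 cochaperones 2 were higher and 2 lower, a share of 20%, where 6.76% of all genes passed. With the replicate block 1 was higher and 1 lower, where 8.49% of all genes passed. The list was chosen with earlier results of these data known, so the share is a description and not a test. Ahsa1, which activates the HSP90 ATPase, had 9.23, 8.90, 8.63 and 9.11 with metformin, against 9.60, 9.50, 9.57 and 9.53 in controls, and fell by 0.58 ± 0.14 (limma adjusted p = 0.0406). Stip1, the HOP adaptor that passes clients from HSP70 to HSP90, had 10.70, 10.59, 10.34 and 10.68 with metformin, against 10.95, 11.18, 11.02 and 11.15 in controls, and fell by 0.50 ± 0.12 (adjusted p = 0.0417, or 0.0515 with the replicate block). Neither gene's groups overlapped. Fnip1, which binds HSP90 with folliculin and slows its ATPase, had 9.66, 10.13, 10.23 and 9.94 with metformin, against 9.06, 9.35, 9.38 and 9.31 in controls, and rose by 0.71 ± 0.15 (adjusted p = 0.0257). Flcn, folliculin itself, had 9.42, 9.69, 9.76 and 9.64 with metformin, against 9.11, 9.31, 9.16 and 9.10 in controls, and rose by 0.46 ± 0.12 (adjusted p = 0.0465, or 0.0555 with the replicate block). Flcn also missed the threshold when every probe was a feature (adjusted p = 0.0532) or its probes were averaged, and its dimmer probe had a change of 0.22. Nudc, an HSP90 cochaperone gene, did not pass at its brighter probe (-0.30, adjusted p = 0.12), but its dimmer probe was lower by the fit of every probe (-0.997, adjusted p = 0.0179), as was the mean of the probes (adjusted p = 0.0218). Folliculin and its partner are also known from nutrient sensing at the lysosome.

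**Figure D4:**
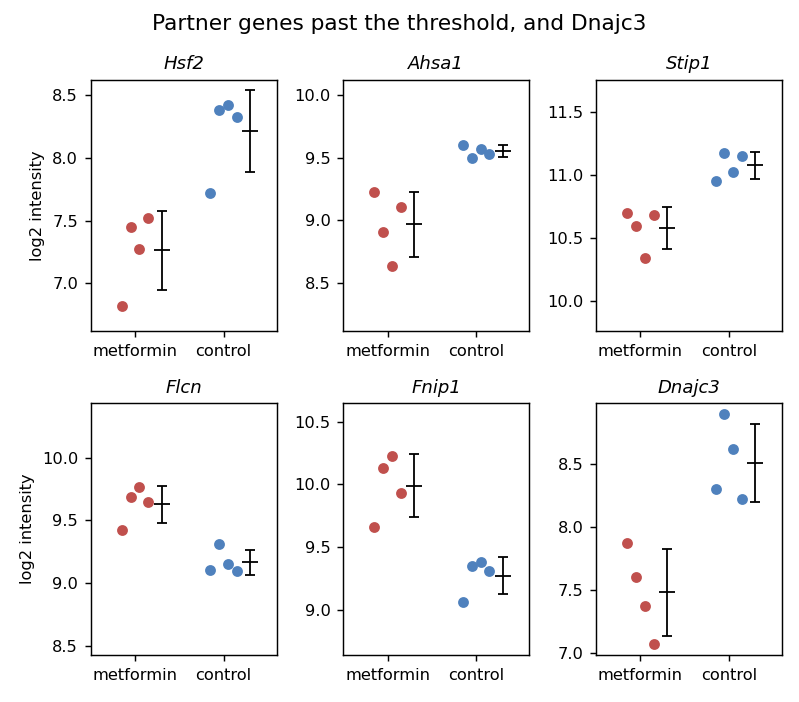
log2 intensity (y axis) in 4 metformin wells (red) and 4 control wells (blue) for the 5 partner genes past the threshold and for Dnajc3; points are wells, dashes with bars are mean and SD, and each panel spans 2 log2 units. Hsf2, Ahsa1, Stip1 and Dnajc3 are lower and Flcn and Fnip1 higher with metformin, without overlap.

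The partner genes passed in fewer of the fits with 1 array left out than Bag2 did. In these 8 fits Hsf2 and Fnip1 passed in 3, Stip1 in 2, and Ahsa1 and Flcn in 1. No partner gene passed without metformin replicate 2 or 3, or without control replicate 2, 3 or 4. Without metformin replicate 4 there was 1 higher and 1 lower, without control replicate 1 there was 1 higher and 3 lower, and without metformin replicate 1 there were 3 higher and 4 lower. Among 12 measured TRiC and tubulin folding partners 0 passed in limma, while an unadjusted p under 0.05 was found for 2, Pdcl3 (0.87 ± 0.28, adjusted p = 0.0932, but 0.0451 with the replicate block) and the prefoldin subunit gene Vbp1 (-0.43). These 2 were 16.7% of that list, where 23.8% of all genes reached an unadjusted p under 0.05 and 6.76% passed. Among 11 mitochondrial partners and proteases 0 passed in limma. An unadjusted p under 0.05 was found for 3 of them (27.3%), near the 23.8% of all genes. These were the mitochondrial HSP90 gene Trap1 (0.35) and the 2 exchange factor genes of mitochondrial HSP70, Grpel2 (0.43) and Grpel1 (-0.44), which had opposite signs. Without control replicate 1 Grpel1 passed (adjusted p = 0.0389). Clpx had a change of 0.38 at its brighter probe. Its dimmer probe had one of 0.67 (adjusted p = 0.059 in the limma fit of every probe).

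The 4 endoplasmic reticulum chaperone genes that the choice by symbol left out stood beside these as follows. Dnajc3, which assists the HSP70 of that compartment, had 7.88, 7.60, 7.37 and 7.07 with metformin, against 8.31, 8.90, 8.63 and 8.23 in controls, and fell by 1.03 ± 0.20 (limma adjusted p = 0.0232). It passed in 4 of the 8 fits with 1 array left out, and its adjusted p was 0.0106 to 0.0772 over all alternatives. Hsp90b1 (-0.37), Hspa5 (-0.48) and Dnajb9 (0.26) did not pass. The difference between these genes and the cytosolic and mitochondrial members was not tested.

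Over all genes, arrays correlated at 0.978 to 0.990 among metformin wells, 0.972 to 0.987 among control wells and 0.961 to 0.983 between the groups. Of the hepatocyte markers 10 of 12 were measured, with a median change of 0.011, and Apoa2, Ttr and Apoa1 had mean levels of 14.07, 13.66 and 12.19, while the probes of Alb and Fgb lay low on the scale at 5.85 and 4.69. The values have no true 0, so that absence of a marker could not be read. Markers of other liver cells had positive changes for 8 of 8 sinusoidal endothelial genes (median 0.38) and 3 of 3 measured biliary genes (median 0.91), with 0 of either past the limma threshold and 1 of each at an unadjusted p under 0.05. This was 12.5% of the endothelial and 33.3% of the biliary genes. Of all genes 23.8% reached an unadjusted p under 0.05 and 6.76% passed the threshold. The mean level of the endothelial list over its genes ran from 6.25 to 7.96 in metformin wells and from 6.20 to 7.39 in control wells, and that of the biliary list from 6.88 to 8.26 in metformin wells and from 6.51 to 7.05 in control wells. With the replicate block 3 endothelial genes (Lyve1, Fcgr2b and Stab2) and 1 biliary gene (Krt19) were higher, and 1 Kupffer cell gene (Vsig4) was lower, past the threshold. Of all genes 8.49% passed in that fit. The Kupffer cell list (median -0.096, 5 of 6 negative) and the stellate cell list (median 0.0031, 3 of 6 negative) lay nearer 0. The part of these cells in the chaperone values was not tested.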

How the data were processed

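Total RNA of 8 wells was read on Illumina bead arrays. The deposited values are log2 intensities, 1 column per array, between 4.16 and 14.4. The sorted values of the columns are nearly the same, so they had been normalized between arrays before deposit. The methods of background correction, normalization and any probe filter are not given in the sources used here. Processing notes of the submitters name limma 3.26.9 with R 3.2.3, in no stated role. Precision is limited by the 8 arrays.

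Probe symbols came from the platform annotation, updated through Entrez identifiers in RefSeq's gene table. The array's own build is not given in the sources used here, and a gene was represented by its brightest probe. Of the 57 members 16 had more than 1 probe, and these disagreed in sign for 7. limma 3.58.1 (lmFit, eBayes, R 4.3.3) compared metformin with control over all 10944 genes, two-sided, with Benjamini-Hochberg adjustment and a threshold of 0.05. Errors after ± are standard errors of a change, or SD where written. The fit was tested on simulated data. Alternatives were the mean of a gene's probes, every probe as a feature, the replicate block, array weights, an intensity trend, an offset of 16, a further quantile normalization, the lowest 25% of genes left out, and each array left out.

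Same-numbered wells deviated together from their group means, with correlations of 0.32, 0.28, 0.15 and 0.23 for numbers 1 to 4. Correlations of wells with different numbers are not given here, so these values alone do not settle a pairing. No label explains the numbers, so the main fit left the wells unpaired, with the replicate block as an alternative. Counts, intervals and standard errors are those of the unpaired fit unless the block is named. The blocked value is given beside a gene where it changed a call.

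The members and lists were chosen with earlier results of these data known. Every member is named. Values by well are given for members past the threshold and for those with the 2 smallest p of each subfamily, and for Hspa8, Hspa4, Dnajc30 and Dnajc8, which were chosen after their values were seen. Of the partner lists the genes past the threshold are named, or the 2 with the smallest p. Hsbp1, Hsf4, Nudc, Grpel1 and Clpx were added after their values were seen, and Tcp1 was added as a gene of a TRiC subunit.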

Additional observations from a re-analysis of the deposited data

Results flagged for a closer look

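In 14 of 126 groups of 4 wells, over the members, the 5 partner genes past the threshold and Dnajc3, 1 well lay apart from the other 3, its gap to the nearest of them exceeding Dixon's 95% limit. Chance alone gives about 1 group in 20.

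Among wells with metformin, Hsp90aa1 had 7.81 in metformin replicate 1 (others 8.71 to 8.73), Cct6a 11.51 in metformin replicate 2 (others 11.90 to 11.94), Dnajc7 7.79 in metformin replicate 2 (others 8.04 to 8.06) and Dnajb3 5.06 in metformin replicate 3 (others 4.54 to 4.57). Among control wells, replicate 1 stood apart for 5 genes. Hsf2 had 7.72 in control replicate 1 (others 8.33 to 8.42), Hspa4 9.21 in control replicate 1 (others 10.10 to 10.21) and Dnajc5 10.37 in control replicate 1 (others 10.94 to 11.03). Dnajc30 had 7.74 in control replicate 1 (others 7.92 to 7.95), and Dnajb3 5.27 in control replicate 1 (others 4.51 to 4.54). In the other control wells Hspbap1 had 7.39 in control replicate 2 (others 7.51 to 7.52), Dnajc11 5.81 in control replicate 2 (others 4.51 to 4.73), Cct2 6.60 in control replicate 3 (others 7.19 to 7.30), Dnajc7 7.61 in control replicate 3 (others 8.03 to 8.06) and Cct8 11.87 in control replicate 4 (others 11.64 to 11.65).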

How the results depend on the processing

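Bag2 kept its direction and its side of the threshold under all 16 alternatives. Of the members 0 were higher in the main analysis, and 1 was with the mean of a gene's probes, 1 with the replicate block, 2 with the offset of 16 (Hspbap1 and Dnajb2) and 1 with the lowest 25% of genes left out. The number of lower members was 1, or 3 with the replicate block. Without single arrays it was 0 to 1 higher and 1 to 1 lower for members, and 0 to 3 higher and 0 to 4 lower for partners. With the mean of a gene's probes 1 partner was higher and 4 were lower, and with every probe as a feature 2 probes, both of Fnip1, were higher and 4 lower. Of 176 subfamily medians 8 moved by more than the spread between wells: HSP90 (-0.59) to -0.21 with the mean of probes or every probe as a feature, HSP70 (0.073) to -0.15 with the lowest 25% of genes left out, DNAJB (-0.027) to 0.037 with array weights, and DNAJC (0.099) to -0.045 with the mean of probes. Without single arrays HSP110 ran from -0.22 to 0.015 and DNAJB from -0.083 to 0.12. The cause was not tested, except that fits with fewer arrays hold fewer samples. No single member past the threshold reversed its sign, and among those not past it 21 members, with changes between -0.30 and 0.18, changed sign under at least 1 alternative. The paired fit, with the replicate block, changed no calls other than those given beside the genes. Signal over background is unknown, which limits what dim probes show.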
